A study of Rattus norvegicus with 16 samples.

Results

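Matrix metalloproteinases (MMPs) and their tissue inhibitors (TIMPs) were examined in rat dorsal root ganglia (DRGs) after tumor cell implantation (TCI) into the tibia. The family was taken as 10 genes by symbol, the 6 proteases Mmp2, Mmp3, Mmp9, Mmp12, Mmp14 and Mmp19 and the 4 inhibitors Timp1, Timp2, Timp3 and Timp4, out of 21021 genes listed. Of these 10 genes, 7 passed the filter on low values and were tested. Mmp3, Mmp9 and Mmp12 did not, and are given by their values alone.

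MMPs are zinc-dependent proteases that cut proteins of the extracellular matrix and also release or inactivate cytokines and growth factors. Most are secreted as inactive proenzymes, and a few, such as MMP14, sit in the cell membrane. TIMPs bind the active site of MMPs and block it, while TIMP2 together with MMP14 also takes part in the activation of proMMP2. In sensory ganglia, MMP9 and MMP2 are known for their part in early and late phases of pain after nerve injury. RNA levels do not report on the activity of these enzymes, which depends on cleavage and inhibition.

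The animals were adult female Sprague-Dawley rats. TCI rats received Walker 256 mammary carcinoma cells in the left tibia, and their L3-L5 DRGs of that side were collected on day 1, 7 or 14, with the ganglia of 1 rat as 1 sample. The labels describe a saline injection for sham rats, whereas the methods describe boiled tumor cells, and they also name a different sequencing protocol. Each of the 4 groups had 4 samples, but sham ganglia were collected on day 14 only, so that on days 1 and 7 the tumor and the time since surgery cannot be told apart. Because they correlated poorly with the others, the study did not use the day 1 sample numbered 2 and the day 7 sample numbered 3, and the main values here use the other 14 samples.

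The deposited FPKM values (fragment counts scaled by transcript length and by the total of each library) hold no read totals. Relative depth, read from the steps between the smallest values of 71 genes, ranged from 0.903 to 1.07 times the median sample. All 14 sensory neuron, 9 Schwann cell and 8 satellite glia markers of the labelled tissue were found and tested. Sample 3 of TCI day 7 carried skeletal muscle RNA, with 24927 FPKM summed over 12 muscle genes, against 240 to 896 in the other 15 samples. Of these genes, Pvalb alone was at 228 to 302 FPKM in those 15 samples. Sham sample 4, with the sum of 896 FPKM, also carried muscle RNA, though far less. Its Acta1 was at 177 FPKM against 5.22 to 5.72 FPKM in the other sham samples, and its Ckm at 76.5 against 1.09 to 1.5 FPKM. Sample 3 of TCI day 14 had the lowest sum of 10 fibroblast markers of all 16 samples (334 FPKM), and values without this sample are given below for several genes. Macrophage markers were much higher from day 7 on, with sums from 37.6 to 66.6 FPKM in sham, from 401 to 530 FPKM at day 7 and from 198 to 706 FPKM at day 14. In whole ganglia, more or fewer cells of a type and more or less RNA per cell cannot be told apart.

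In sham ganglia the inhibitors exceeded the proteases. Timp2 averaged 266 FPKM ± 13.1 (SD, n = 4) and ranked 207th of all genes, followed by Timp3 with 109 FPKM ± 10.3 and Timp1 with 49.4 FPKM ± 4.62. Among the proteases, Mmp14 averaged 47.5 FPKM ± 1.81, Mmp2 15.01 FPKM ± 2.84 and Mmp19 2.94 FPKM ± 0.559. The mean of Mmp14 lay within the spread of Timp1, and the sample values of these genes overlapped. Timp4 had 4.003 FPKM ± 1.80, a spread that took in the mean of Mmp19, and Mmp3, Mmp9 and Mmp12 were near 0 with means of 0.095, 0.015 and 0.015 FPKM. Summed over members, the 4 inhibitors reached 6.54 ± 0.172 times the level of the 6 proteases in sham (n = 4). This ratio leaves out the MMP genes outside the 10 members, among them Mmp15 with 76.7 FPKM in sham, and would be lower with them.

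**Figure D1:**
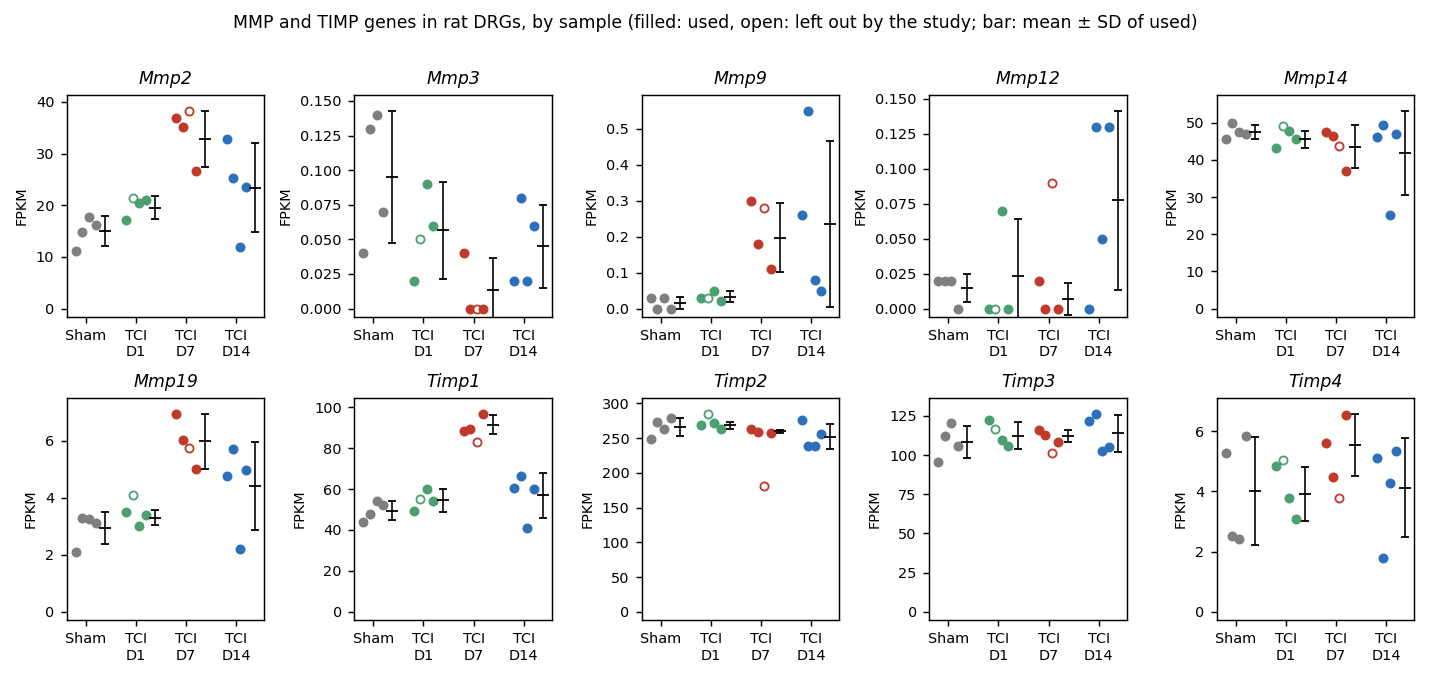
FPKM of the 10 MMP and TIMP genes by sample (y axis, linear and different for each gene) in sham and on TCI days 1, 7 and 14. Filled points are the samples used, open points those the study left out, and bars the mean ± SD of the used samples. Timp1 on day 7, at 88.5 to 96.8 FPKM, lies clear of every sample of the other groups, and 1 sample of day 14 sits low in Mmp2, Mmp14, Mmp19 and Timp1.

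The first comparison asked which members changed on each day. On day 7 after TCI, Mmp2, Mmp19 and Timp1 were higher than in sham, by 1.85 to 2.19 times in mean FPKM, and the other 4 tested members did not pass the test. The study called genes that changed at least 1 log2 unit either way with an adjusted p no larger than 0.001. By these cut-offs 0 of 7 tested members were called on day 7, where 1.83% of the 14023 tested genes passed. With the adjusted p alone, at a limit of 0.05 and any fold change, 3 of 7 members passed, all higher, where 17.9% of all tested genes passed, 14.5% higher and 3.45% lower. The median log2 fold change of the 7 members on day 7 was 0.45, against 0.04 over all tested genes.

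On day 14, 0 of 7 members passed either rule by limma, and 1 of 7 (Mmp2) had an unadjusted p under 0.05. Of all tested genes, 0.642% passed the study's cut-offs on day 14 and 15.1% the adjusted p of 0.05, 11.9% higher and 3.21% lower. An unadjusted p under 0.05 was found for 4198 genes. The count of 0 of 7 members on day 14 rests on 1 library. Without sample 3 of day 14, 3 of 7 members (Mmp2, Mmp19 and Timp1) passed at an adjusted p of 0.05, all higher, where 17.8% of all tested genes passed. In that fit Mmp2 also met the study's cut-offs on day 7, as 2.3% of all tested genes did. On day 1, 0 of 7 members passed either rule or had an unadjusted p under 0.05 by limma, and neither did any gene adjusted over all tested (0% by both rules), although 734 genes had an unadjusted p under 0.05.

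Between day 14 and day 7, 0 of 7 members passed either rule by limma. Of all tested genes, 0.0143% passed the study's cut-offs and 0.0998% the adjusted p of 0.05 in that comparison, with 1396 genes at an unadjusted p under 0.05. Timp1 was the only member with an unadjusted p under 0.05 there.

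**Figure D2:**
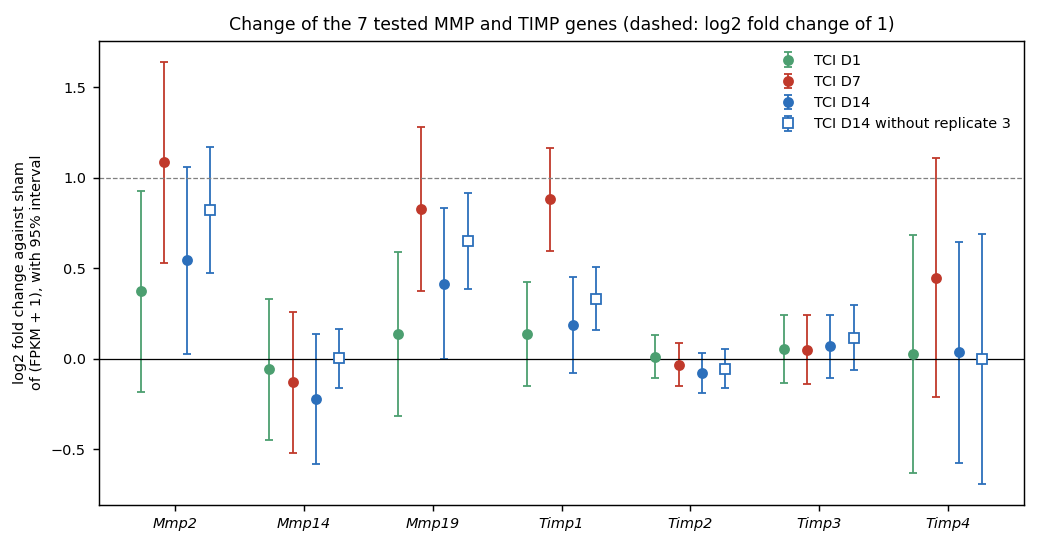
log2 fold change against sham on the log2(FPKM + 1) scale (y axis) of the 7 tested members, with 95% intervals from limma, for TCI days 1, 7 and 14. Open squares give day 14 without its sample 3, where Mmp2 is at 0.82 in place of 0.54, Mmp19 at 0.65 in place of 0.42 and Timp1 at 0.33 in place of 0.19.

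Mmp2 encodes gelatinase A, which cuts denatured collagens and collagen type IV of basement membranes. It was at 11.2, 14.9, 17.8 and 16.2 FPKM in the 4 sham samples and at 36.9, 35.1 and 26.6 FPKM in the 3 day 7 samples used. On day 14 it was at 32.8, 25.4, 11.9 and 23.6 FPKM. All day 7 samples were above every sham sample, and on day 14 this held for 3 of 4, with sample 3 inside the sham range. Mmp2 rose on day 7 by a log2 fold change of 1.09 ± 0.26 (SE, limma, adjusted p = 0.0106), larger than 1 but short of the study's p cut-off. On day 14 the log2 fold change was 0.54 ± 0.24 (limma, adjusted p = 0.145), and without sample 3 it was 0.82 ± 0.16 (adjusted p = 0.00472). On day 1 the 3 samples had 17.1, 20.5 and 21.0 FPKM, of which 2 were above every sham sample, and the log2 fold change of 0.37 did not pass (95% interval -0.18 to 0.93).

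Mmp9, gelatinase B, which neutrophils and activated macrophages secrete, stayed below 0.6 FPKM in all 16 samples. In sham it was listed at 0.03, 0, 0.03 and 0 FPKM. On day 1 it was at 0.03, 0.05 and 0.02 FPKM, on day 7 at 0.30, 0.18 and 0.11 FPKM, and on day 14 at 0.26, 0.55, 0.08 and 0.05 FPKM. Every sample of days 7 and 14 lay above every sham sample, and day 1 overlapped with sham. By a two-sided exact permutation test, p = 0.0571 for day 7 against sham and p = 0.0286 for day 14 against sham, each the smallest p these group sizes allow, and both were 0.257 after adjustment over the 9 tests of the 3 untested members. Sample 3 of day 7, left out by the study, had 0.28 FPKM. Summed neutrophil markers ranged from 0.83 to 1.32 FPKM in sham, from 5.52 to 20.1 FPKM at day 7 and from 1.78 to 3.01 FPKM at day 14. Of the 10 neutrophil genes, 2 were at 0 in all sham samples and 1 in all samples of day 7 and of day 14. The day 7 sum came mostly from S100a9, S100a8 and Csf3r, with means of 4.93, 3.46 and 1.98 FPKM. The next highest mean was that of Camp, at 0.223 FPKM, and 2 of the 10 genes passed the filter. The part of neutrophils or macrophages in the Mmp9 values was not tested.

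Mmp3 (stromelysin-1), which degrades proteoglycans and activates other proMMPs, and Mmp12, the macrophage elastase, were nearly absent. Mmp3 was at 0.04, 0.13, 0.14 and 0.07 FPKM in sham, at 0.04, 0 and 0 FPKM on day 7 and at 0.02, 0.08, 0.02 and 0.06 FPKM on day 14. It was thus lower on day 7 than in 3 of the 4 sham samples and overlapped with sham (two-sided exact permutation test, p = 0.114, adjusted p = 0.257). Mmp12 was at or under 0.02 FPKM in sham and at 0.02, 0 and 0 FPKM on day 7. On day 14 it was at 0, 0.13, 0.05 and 0.13 FPKM, 3 of 4 samples above sham (exact permutation p = 0.143, adjusted p = 0.257). Mmp12 therefore stayed near 0 on the days on which 15 of 15 macrophage markers (day 7) and 13 of 15 (day 14) rose at an adjusted p of 0.05. Some of these markers, among them Itgam, Ms4a7 and Msr1, were under 1 FPKM in every sham and day 1 sample. They passed the filter only through days 7 and 14. C1qa, a complement gene of macrophages, went from 9.48 FPKM in sham to 101 FPKM on day 7.

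Mmp14 encodes a membrane-type MMP that cleaves collagens at the cell surface and activates proMMP2. It was at 45.5, 49.9, 47.5 and 47.0 FPKM in sham, at 47.4, 46.3 and 36.9 FPKM on day 7 and at 46.1, 49.5, 25.1 and 47.0 FPKM on day 14. The groups overlapped, and the only value far from the rest on day 14 was that of sample 3. The log2 fold change was -0.13 on day 7 (95% interval -0.52 to 0.26) and -0.22 on day 14 (-0.58 to 0.14), and without sample 3 the day 14 value was 0.00 (-0.16 to 0.16). Within the summed level of the 6 member MMPs, Mmp14 had a mean share of 72.6% ± 3.55 in sham and 52.8% ± 0.994 on day 7. Mmp2 had 22.8% ± 3.04 and 39.7% ± 0.793 (SD, n = 4 and n = 3, not tested). These shares leave out the other MMP genes, of which Mmp15 had a higher level than Mmp14.

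Mmp19, a secreted MMP that cuts basement membrane proteins, was low but detectable. It was at 2.11, 3.28, 3.26 and 3.11 FPKM in sham, at 6.92, 6.01 and 4.99 FPKM on day 7 and at 4.76, 5.70, 2.20 and 4.97 FPKM on day 14. As for Mmp2, all day 7 samples and 3 of 4 day 14 samples were above every sham sample. Mmp19 rose on day 7 by a log2 fold change of 0.83 ± 0.21 (SE, limma, adjusted p = 0.0154). This call was lost without sample 1 of day 7 (adjusted p = 0.0703) or without sample 2 (adjusted p = 0.0503). On day 14 the log2 fold change was 0.42 ± 0.19 (limma, adjusted p = 0.172), and without sample 3 it was 0.65 ± 0.12 (adjusted p = 0.00401). On day 1, with 3.48, 3 and 3.4 FPKM, Mmp19 overlapped with sham.

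Timp1, the inducible inhibitor of the family, which also acts as a growth factor, had the smallest adjusted p of the members. It was at 43.7, 47.8, 54.0 and 52.2 FPKM in sham and at 49.19, 60.02 and 54.15 FPKM on day 1. It reached 88.5, 89.4 and 96.8 FPKM on day 7 and was at 60.4, 66.5, 41.2 and 60.1 FPKM on day 14. Day 7 did not overlap with any other group, day 1 overlapped with sham, and on day 14 3 samples were above and sample 3 below every sham sample. Timp1 rose on day 7 by a log2 fold change of 0.88 ± 0.13 (SE, limma, adjusted p = 0.000718), past the study's p cut-off and short of its fold cut-off. On day 14 the log2 fold change was 0.19 ± 0.12 (limma, adjusted p = 0.338), and without sample 3 it was 0.33 ± 0.08 (adjusted p = 0.0137). Day 14 against day 7 gave -0.69 ± 0.13 (unadjusted p = 0.000164, limma adjusted p = 0.0934), and this passed at an adjusted p of 0.0139 once sample 2 of day 14 was left out. Timp1 made up 11.5% ± 0.608 of the summed TIMP level in sham and 19.5% ± 0.985 on day 7.

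The other inhibitors did not pass on any day. Timp2, which is produced at a steady level in many tissues, was at 249, 273, 263 and 279 FPKM in sham, at 262, 259 and 258 FPKM on day 7 and at 275, 238, 238 and 256 FPKM on day 14. All groups overlapped, and the 95% interval of the log2 fold change on day 7, from -0.15 to 0.08, was the narrowest of the 7 members. Timp3, which binds to the matrix and also inhibits ADAM proteases, was at 95.9, 112, 120 and 106 FPKM in sham and at 116, 112 and 108 FPKM on day 7, with an interval of -0.14 to 0.24. On day 14 Timp3 was at 122, 126, 102.5 and 105 FPKM, of which 2 were above every sham sample (-0.11 to 0.24). Timp4 varied most within groups, with 5.26, 2.51, 2.41 and 5.83 FPKM in sham and 5.61, 4.48 and 6.54 FPKM on day 7. Its interval on day 7 ran from -0.21 to 1.11, so that a change as large as that of Timp1 or no change were both within reach of the error.

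Timp1, Timp3 and Timp4 lie inside the annotated bounds of the synapsin genes Syn1, Syn3 and Syn2, which neurons express. Whether reads were counted by strand is not given in the sources used here, so that reads from a pair of overlapping genes cannot be told apart with certainty. Syn1 was at 91.4 to 101 FPKM in sham and at 90.9 to 99.9 FPKM on day 7, with a log2 fold change of -0.00 (limma, adjusted p = 0.991), while Timp1 rose. Syn2 was lower on day 14 (log2 fold change -0.19, limma, adjusted p = 0.0228), and Syn3 did not pass on days 7 or 14.

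The 250 bases before the annotated start were available from RefSeq (assembly GRCr8) for 6 of the 10 members, Timp1 to Timp4, Mmp3 and Mmp12. Mmp2, Mmp9, Mmp14 and Mmp19 have no entry in that table. The windows of Timp1, Timp2 and Mmp3 are shown because they set the inhibitor that rose beside the one with the highest level and beside a protease gene that was nearly absent. The AP-1 consensus (TGANTCA), an AP-1 variant (TGAGTAA) and the PEA3 motif of ETS factors (AGGAAG), searched on both strands, are in capitals where found. They are given in the direction of each gene, from chrX:3771123-3771372 (minus strand, inside the annotated bounds of Timp1, which reach farther upstream), chr10:104089215-104089464 (minus strand) and chr8:12925031-12925280 (plus strand).
Timp1: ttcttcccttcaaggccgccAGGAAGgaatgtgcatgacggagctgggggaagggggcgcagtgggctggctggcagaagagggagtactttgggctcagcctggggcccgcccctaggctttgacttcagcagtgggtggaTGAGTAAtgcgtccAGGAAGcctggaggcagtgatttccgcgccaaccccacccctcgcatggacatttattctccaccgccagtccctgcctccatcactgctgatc
Timp2: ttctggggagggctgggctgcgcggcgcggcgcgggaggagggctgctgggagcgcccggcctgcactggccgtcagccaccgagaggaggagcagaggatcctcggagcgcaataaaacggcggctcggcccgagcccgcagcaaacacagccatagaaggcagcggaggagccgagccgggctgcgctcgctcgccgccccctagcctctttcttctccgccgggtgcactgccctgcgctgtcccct
Mmp3: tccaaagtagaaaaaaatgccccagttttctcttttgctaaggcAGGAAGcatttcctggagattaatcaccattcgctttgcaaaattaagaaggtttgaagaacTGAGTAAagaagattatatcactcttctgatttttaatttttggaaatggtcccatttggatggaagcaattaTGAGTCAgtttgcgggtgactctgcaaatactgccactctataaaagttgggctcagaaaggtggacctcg
The window of Timp1 held the AP-1 variant 1 time and AGGAAG 2 times, with the second copy 94 to 89 bases before the start and the AP-1 variant 108 to 102 bases before it. The Timp2 and Timp3 windows held none of the 3 motifs, and that of Timp4 held AGGAAG 1 time. Mmp3, with all 3 motifs and a TATAAA 32 to 27 bases before the start, was the gene with the lowest level of the 3 shown, and Mmp12 held TGANTCA and TATAAA. Over 33469 promoter windows of the same length, 6.34% held TGANTCA, 2.38% TGAGTAA, 29.5% AGGAAG and 12.9% TATAAA. A GC box (GGGCGG, in 30.5% of windows) was found 1 time each for Timp1 and Timp2 and 3 times for Timp3, with a GC content of 61.2%, 72% and 69.6%, against 38.8% for Mmp3. A match of letters does not show that a factor binds there.

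Summed fibroblast markers were higher on the day on which Mmp2, Mmp19 and Timp1 rose. Summed over 10 fibroblast genes, the level was 415 to 593 FPKM in sham, 625 to 813 FPKM at day 1, 964 to 1226 FPKM at day 7 and 334 to 970 FPKM at day 14. The sum rests mostly on Dcn, Col1a1 and Col3a1. Their means were 156, 154 and 122 FPKM in sham and 514, 227 and 232 FPKM on day 7. On day 7 Dcn passed, and Col1a1 (limma, adjusted p = 0.393) and Col3a1 (adjusted p = 0.097) did not. At an adjusted p of 0.05, 5 of the 10 genes rose on day 7 and 3 on day 14. Of all tested genes, 14.5% were higher on day 7 and 11.9% on day 14. Without sample 3 of day 14, 9 of the 10 passed on day 7 and 7 on day 14. In that fit 17.8% of all tested genes passed on day 14 in either direction, and the share on day 7 at this limit was not counted. The 9 genes therefore cannot be set against all genes. By the study's cut-offs, 2.3% of all tested genes passed on day 7 in that fit and 1.83% in the main fit. None of these 10 genes was at 0 in all samples of a group. Sample 3 of day 14 had the lowest fibroblast sum, the lowest Timp1 and Mmp14 and the second lowest Mmp2 and Mmp19 of all 16 samples, but its macrophage sum (198 FPKM) was above the highest of sham (66.6 FPKM). Samples of nearly equal fibroblast sum differed in Timp1: sample 4 of day 7 (964 FPKM) had 96.8 FPKM of Timp1 and sample 1 of day 14 (970 FPKM) had 60.4 FPKM, whereas Mmp2 was at 26.6 and 32.8 FPKM in the same samples. Mmp14 stayed between 36.9 and 49.9 FPKM in the 15 other samples while their fibroblast sums ranged from 415 to 1226 FPKM. The part of fibroblasts or macrophages in these changes was not tested, and no correlation is given because the samples cluster by day.

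**Figure D3:**
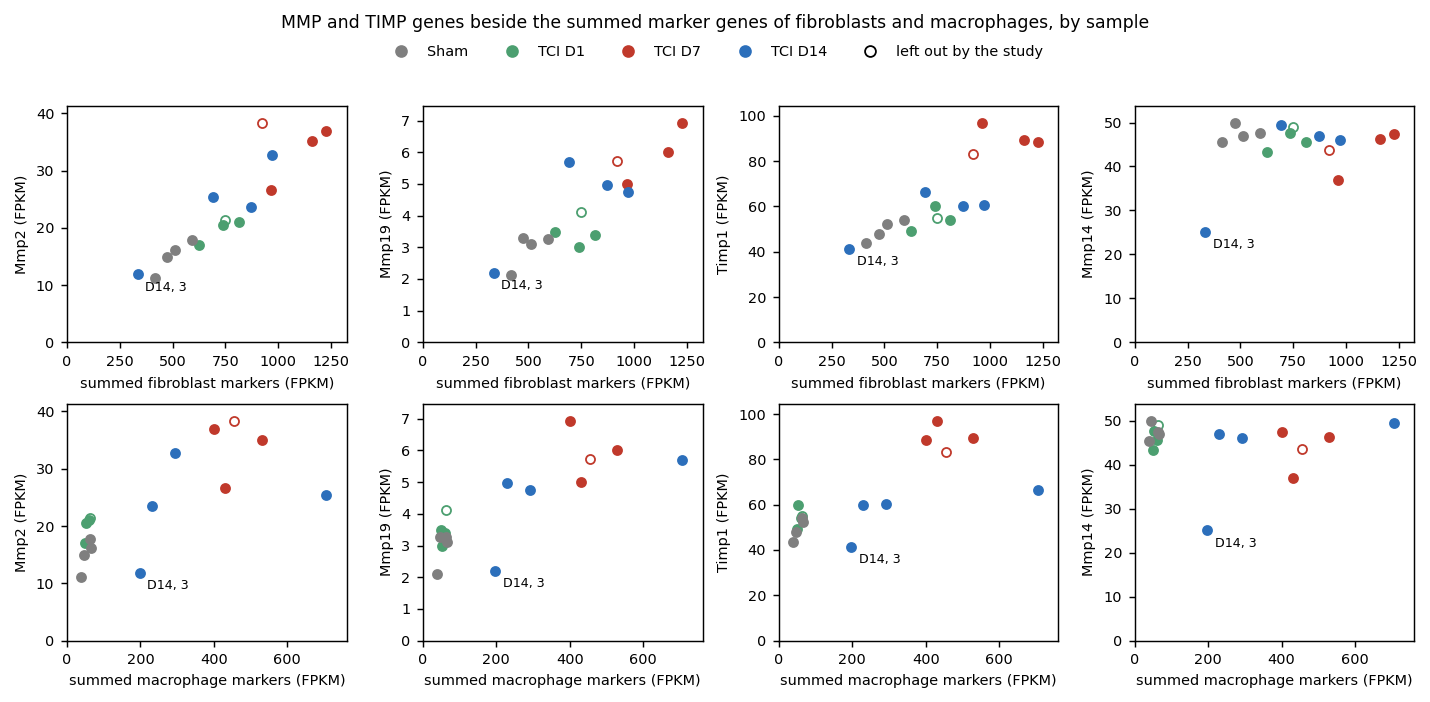
Mmp2, Mmp19, Timp1 and Mmp14 (y axes, FPKM) beside the summed fibroblast markers (top row) and macrophage markers (bottom row, both x axes in FPKM), with 1 point per sample and open points for the samples left out by the study. Sample 3 of day 14 lies at the lowest fibroblast sum (334 FPKM), and the day 7 samples lie above the others in Timp1.

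With the samples left out by the study added, the same 3 members passed on day 7 at an adjusted p of 0.05. Of all 14087 genes tested in that fit, 2047 were higher and 670 lower at the same limit. Sample 3 of day 7 had 38.3 FPKM of Mmp2, 5.73 of Mmp19 and 83.1 of Timp1, within or close to the range of the other day 7 samples despite its muscle RNA. Its Timp2, at 181 FPKM, was below every other sample. With all 16 samples, Mmp2 on day 7 had a log2 fold change of 1.14 ± 0.23 (limma, adjusted p = 0.00276), Mmp19 0.82 ± 0.19 (adjusted p = 0.00676) and Timp1 0.85 ± 0.12 (adjusted p = 0.000222).

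Other genes of the MMP system were counted by list, without a test of the lists. The counts read against the shares of all tested genes at an adjusted p of 0.05, which were 14.5% higher and 3.45% lower on day 7 and 11.9% higher and 3.21% lower on day 14. Counts without sample 3 of day 14 come from another fit, in which 17.8% of all tested genes passed on day 14 in either direction. The share of higher genes alone was not counted there. Of 17 further MMP genes, 15 were listed and 9 tested. Only Mmp25, a membrane-type MMP of leukocytes, passed on day 7 (log2 fold change 0.33 ± 0.09, limma, adjusted p = 0.0202), from 8.27 to 10.6 FPKM, and it did not pass with all 16 samples. Mmp15, another membrane-type MMP, had the highest level of all MMP genes, with 76.7 FPKM in sham, 67.8 on day 7 and 68.5 on day 14, and did not pass. Mmp24 was at 17.1, 16.6 and 16.9 FPKM in the same groups. The remaining Mmp11, Mmp13, Mmp16, Mmp17, Mmp23 and Mmp28 had group means between 0.348 and 5.74 FPKM and did not pass on any day.

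**Figure D4:**
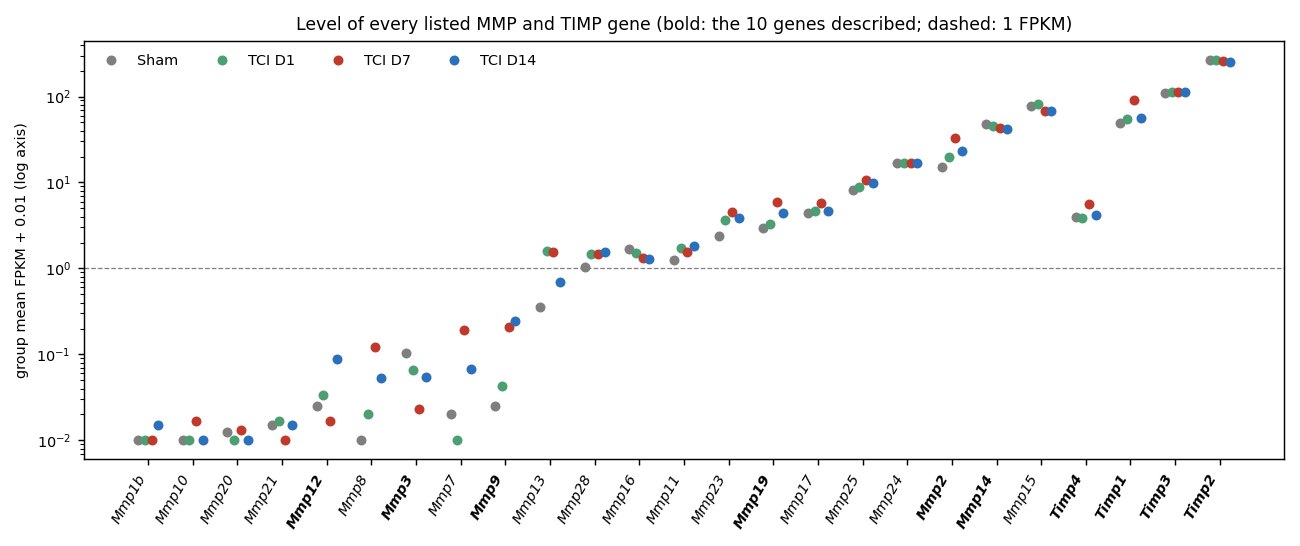
Group mean FPKM plus 0.01 (log axis) of the 25 listed MMP and TIMP genes in sham and on TCI days 1, 7 and 14, ordered by level within MMPs and within TIMPs. The 10 genes described are in bold. Mmp15 and Mmp14 have the highest means of the MMPs in every group, and 9 MMP genes have means under 1 FPKM in every group.

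Among the ADAM and ADAMTS proteases, relatives of the MMPs, 7 of 23 tested genes (30.4%) were higher and 1 lower on day 7. Adamts1, which cuts versican and aggrecan, rose by a log2 fold change of 0.85 ± 0.15, Adamts13 by 0.83 ± 0.16, Adam33 by 0.83 ± 0.10, Adamts2, a procollagen processing enzyme, by 0.79 ± 0.20 and Adamts14 by 0.57 ± 0.17. Adamts13 was under 1 FPKM in every sham and day 1 sample, so it passed the filter only through days 7 and 14. On day 14, 3 of 23 were higher (13%, near the share of all genes), namely Adamts13 (0.73 ± 0.15), Adam33 (0.44 ± 0.09) and Adam15 (0.22 ± 0.05), and Adamts17 was lower (-0.64 ± 0.10). Without sample 3 of day 14, 4 of 23 were higher and 1 lower. Of the activators, partners and clearance receptors of MMPs, 6 of 16 tested (37.5%) rose on day 7. They included the MMP14-binding claudin Cldn1 (1.48 ± 0.25), thrombospondin Thbs1 (1.40 ± 0.29), urokinase Plau (0.75 ± 0.22), which starts plasmin-driven activation of proMMPs, the clearance receptor Lrp1 (0.51 ± 0.16) and Bsg (0.31 ± 0.07), which induces MMPs. On day 14, 4 of 16 (25%) were higher, namely Cldn1 (0.75 ± 0.23), Plau (0.70 ± 0.20), Cd44 (0.27 ± 0.06) and Furin (0.27 ± 0.05), and the integrin Itgb3 was lower (-0.77 ± 0.18), and without sample 3 of that day 7 were higher.

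Of 15 tested genes listed as other protease inhibitors, 7 (46.7%) rose and 2 fell on day 7. The 7 include Pcolce (0.94 ± 0.29), which is known as an enhancer of a procollagen protease. The study's cut-offs were met by 3 of the 7. These were Slpi, which inhibits leukocyte elastase (log2 fold change 3.37 ± 0.50), the C1 inhibitor Serping1 (2.61 ± 0.29) and Wfdc1 (1.20 ± 0.17). A2m, a general protease trap that also binds MMPs, rose by 1.66 ± 0.33. On day 14, 3 of 15 (20%) were higher. Serping1 (2.08 ± 0.26), A2m (0.99 ± 0.30) and Cst3 (0.29 ± 0.08) were higher and Spock3 was lower (-0.30 ± 0.06), and without sample 3 of that day 7 of 15 were higher.

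Of 30 non-collagen matrix substrates tested, 10 (33.3%) rose and 3 fell on day 7. Fbln1 (2.04 ± 0.12) and Dcn (1.73 ± 0.27) met the study's cut-offs, and Fn1, which encodes fibronectin (1.87 ± 0.37), Bgn (1.15 ± 0.20) and Lum (1.01 ± 0.31) passed at 0.05. Dcn and Lum are also in the fibroblast list. On day 14, 4 of 30 were higher (13.3%, near the share of all genes), among them Dcn (0.93 ± 0.25), Bgn (0.87 ± 0.18) and Fbln1 (0.85 ± 0.11), and Bcan (-0.72 ± 0.09) and Fbln2 (-0.61 ± 0.11) were among the 3 that were lower. Without sample 3 of day 14, 10 of 30 were higher and 2 lower.

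Of 18 tested inducers of MMP genes, 10 (55.6%) were higher and 1 lower on day 7. Spi1, a transcription factor of myeloid cells, met the study's cut-offs with a log2 fold change of 2.12 ± 0.29. Tgfb1 rose by 1.65 ± 0.27, Il1b by 0.89 ± 0.27, Ets1 by 0.84 ± 0.24 and Junb, a subunit of AP-1, by 0.79 ± 0.19. Il1b was under 1 FPKM in every sham and day 1 sample and passed the filter only through days 7 and 14. On day 14, 4 of 18 (22.2%) were higher, namely Spi1 (1.86 ± 0.27), Tgfb1 (1.40 ± 0.25), Jund (0.48 ± 0.10) and Rela (0.29 ± 0.09), and without sample 3 of that day 10 of 18 were. On day 1, 0 genes of these lists passed by limma at an adjusted p of 0.05, as for all tested genes.

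**Figure D5:**
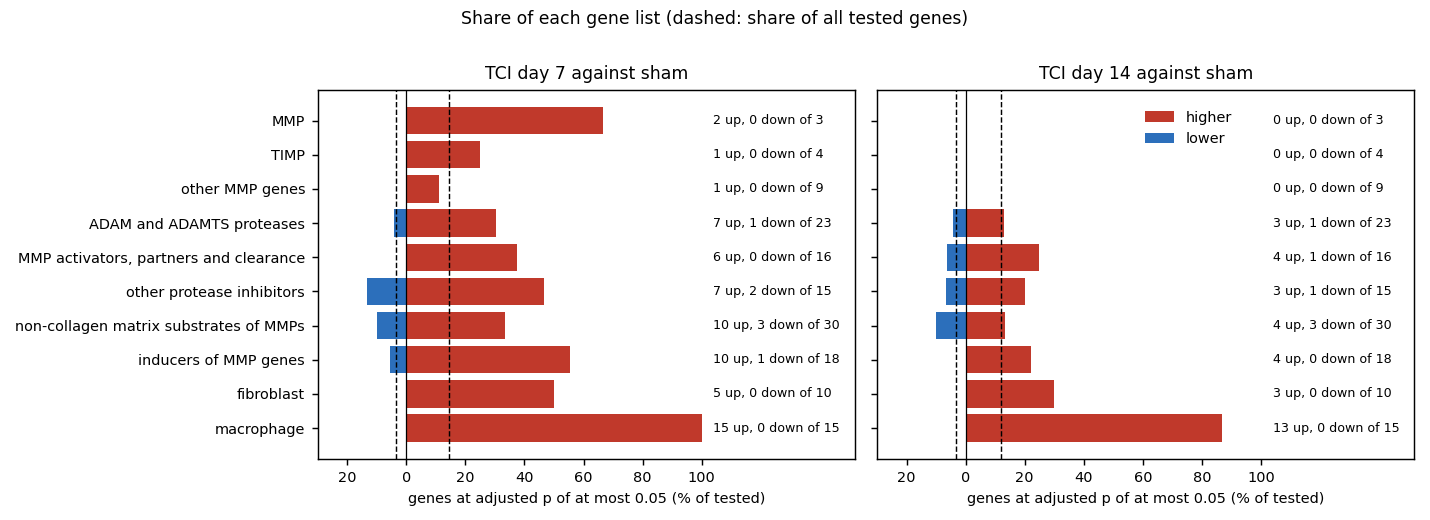
Percent of tested genes (x axis) that were higher (right) or lower (left) with an adjusted p up to 0.05 on TCI days 7 and 14, for the MMP and TIMP members, 6 related lists and the fibroblast and macrophage markers. Dashed lines mark the share of all tested genes, 14.5% higher on day 7 and 11.9% on day 14, and the text at the right gives the counts.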

How the data were processed

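Per the labels and methods, the authors sequenced RNA of L3-L5 DRGs, removed low-quality reads, mapped reads with HISAT and Bowtie2, estimated expression with RSEM, and deposited 1 FPKM table for each sample, with 2 decimals. The labels also list CASAVA 1.4. Genome build, annotation and strand setting are not given in the sources used here. FPKM are relative to each library, hold no counts, and carry more relative error in low genes.

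From the FPKM, log2(FPKM + 1) was computed for the 14023 genes that reached 1 FPKM in 3 or more of the 14 samples used. These samples could be of any group, so a gene low in sham could enter the tests through the groups in which it was high. All 4 groups entered 1 limma 3.58.1 model (R 4.3.3, intensity trend, Benjamini-Hochberg adjustment), tested on simulated data. The design's branch for counts was not used. Standard errors, 95% intervals and adjusted p-values come from this model. The fold change of low genes is understated by the pseudocount of 1. The 3 members under the filter were compared by two-sided exact permutation tests over samples. In the lists, the genes named were up to 5 per list and day with the largest change among those that passed, every MMP gene tested, and Pcolce. One gene under this rule is not reported here. Depth was compared with the values of 71 genes that came in steps within 20%. Alternatives were all 16 samples, only the 2 groups compared, quantile normalization, a pseudocount of 0.1, no trend, a filter on a mean of 5 FPKM or none, a replicate block and each sample left out. The ratio of group means and the fit of 15 samples without sample 3 of day 14 were added after seeing the data. The members and lists were chosen with earlier results of these data known. Figures were drawn with matplotlib 3.10.9. Promoter windows, names and neighbours came from RefSeq (GRCr8).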

Additional observations from a re-analysis of the deposited data

Results flagged for a closer look

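Each of the 10 members was screened in each of the 4 groups, with all 4 samples. By Dixon's criterion on the gap over the range, 6 values lay apart from the other 3 of their group. For values without ties, chance alone would do this in about 1 of 20 such sets. Mmp14 in sample 3 of TCI day 14 was at 25.05 FPKM against 46.1 to 49.5 in the others. Mmp19 in sham sample 1 was at 2.11 FPKM against 3.11 to 3.28. Timp2 in sample 3 of TCI day 7, which carried muscle RNA, was at 181.46 FPKM against 258 to 262. Near the lower end of the scale, Mmp3 was at 0.04 FPKM in sample 1 of day 7 against 0 in the others, Mmp12 at 0.07 FPKM in sample 3 of day 1 against 0, and Mmp12 at 0 in sham sample 4 against 0.02. In these low cases the other values were tied, which fixes the ratio at 1, so the chance rate does not apply to them.

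The 2 samples left out by the study held values above every sham sample. Sample 2 of day 1 had 21.37 FPKM of Mmp2, 4.11 of Mmp19, 55.04 of Timp1 and 284.9 of Timp2, against sham maxima of 17.8, 3.28, 54.0 and 279 FPKM. Sample 3 of day 7 had 38.28 FPKM of Mmp2, 0.28 of Mmp9, 0.09 of Mmp12, 5.73 of Mmp19 and 83.05 of Timp1, against sham maxima of 17.8, 0.03, 0.02, 3.28 and 54.0 FPKM. The same sample was below every sham sample in Timp2 (181.46 FPKM), Mmp14 (43.68) and Mmp3 (0), against sham minima of 249.18, 45.5 and 0.04 FPKM. No member was below every sham sample in sample 2 of day 1.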

How the results depend on the processing

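On day 7, Mmp2 and Timp1 kept an adjusted p under 0.05 and their direction in each alternative that gives a test. Mmp19 kept its direction but lost its call without sample 1 or sample 2 of day 7, and was not tested with a mean of at least 5 FPKM. The count of members called on day 7 went from 0 by the study's cut-offs to 3 at an adjusted p of 0.05, and was 0 to 1 with 1 sample left out (1 without sample 3 of day 14, also with all other 15 samples). The count at an adjusted p of 0.05 was 0 to 3 on day 14 (3 without its sample 3, also with all other 15 samples) and 0 to 1 for day 14 against day 7 (1 without sample 2 of day 14). In each case the cause was not tested. Some small fold changes took the opposite sign. For day 1, Timp2 was -0.016 with quantile normalization, and Timp4 was -0.14 with the replicate block and -0.039 as the ratio of group means. For day 14, Timp4 was -0.076 with quantile normalization and -0.0021 in the 15 samples without sample 3, and Mmp14 was 0.0017 there. For day 14 against day 7, Timp2 was 0.082 with all 16 samples, and in the 15 samples without sample 3 of day 14 Timp2 was 0.11 and Mmp14 0.13. With 1 sample left out, Timp2 on day 1 ranged from -0.020 to 0.035, Timp3 from -0.0089 to 0.10 on day 1 and from -0.0075 to 0.10 on day 7, Timp4 from -0.13 to 0.20 on day 1 and from -0.12 to 0.31 on day 14, and Mmp14 from -0.32 to 0.0017 on day 14. In the same fits, day 14 against day 7 ranged from -0.21 to 0.13 for Mmp14 and from -0.033 to 0.067 for Timp3.

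Further MMP genes higher on day 7 numbered 0 with all 16 samples or quantile normalization, 3 with no filter, and 2 with the replicate block or only the 2 groups compared, in place of 1. With a mean of at least 5 FPKM, the ADAM and ADAMTS genes higher numbered 2 on day 7 and 1 on day 14. On day 14 the activators and partners numbered 2 with all 16 samples, no filter or only the 2 groups compared, and the other inhibitors 1 with no filter or only the 2 groups compared. On day 7 the matrix substrates numbered 6 with no filter and the inducers 6 with quantile normalization. Quantile normalization moved the median log2 fold change of all genes on day 7 from 0.04 to -0.07. Sample numbers did not pair the groups: deviations of same-numbered samples correlated from -0.0973 to 0.268 (median 0.004, 18 pairs), and the replicate block changed no call of a member. FPKM hold no counts, so changes of Mmp3, Mmp9 and Mmp12 were not detectable with any certainty at this depth.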

Other observations

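Mmp13, a collagenase, took low or high values within each TCI group, while all 4 sham samples were low. It was at 0.18 to 0.46 FPKM in 11 samples and at 1.84 to 2.31 FPKM in 5, namely samples 1 and 3 of day 1, samples 1 and 2 of day 7 and sample 2 of day 14. Mmp11 was listed at 0 in sham sample 3, sample 2 of day 7 and sample 3 of day 14 and at 1.45 to 2.71 FPKM in the other 13 samples. Mmp28 was at 0.01 FPKM in sham sample 1 and at 0.42 to 2.45 FPKM in the other 15. Mmp7, a matrilysin, reached 1.5 FPKM in sample 3 of day 7, left out by the study, and was at most 0.30 FPKM in the others. All were chosen after their values were seen.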
